A study of Mus musculus with 15 samples.

Results

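Nuclear receptors are transcription factors that small lipophilic ligands such as retinoids, oxysterols, fatty acids and steroids switch between repression and activation of their target genes. They act through coregulators: coactivators such as the Ncoa proteins and the Ppargc1 proteins open chromatin at a bound receptor, and corepressors such as Nrip1 and Ncor1 close it. In alveolar macrophages, which clear inhaled particles and surfactant from the airspaces, this system is known for the control of surfactant lipid handling and for restraint of inflammatory genes. The set described here was defined by gene symbol: 46 genes for nuclear receptors and their coregulators, Pparg left out. A probe counted as a member where the platform annotation gave it exactly 1 of these symbols, which held for 43 of 17195 probes and covered 39 of the 12909 genes named on the array. Thra, Nr3c2, Nr1h2, Rorb, Rarb, Ncor1 and Nr5a1 were not analysed here. Nrip1, Rxra, Nr2f2 and Nr6a1 had 2 probes each, and these are reported apart.

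Total RNA of mouse alveolar macrophages was hybridised on 15 arrays with 2 colours, each against the same macrophage reference RNA. There were 3 groups of 5 arrays: wild type mice (b6+/+Dox), mice without the integrin subunit beta6 (b6-/-Dox, here beta6 null) and a further group. The latter was beta6 null mice with added TGF-b1 (b6-/-TGFb+/+Dox, here beta6 null with TGFb1). All mice, the wild type controls included, had received doxycycline. The integrin alphavbeta6 of lung epithelium is known for activating latent TGFb. The sources used here do not give the promoter that drives TGF-b1, the age of the mice or whether samples were pooled. Nor do the labels tie arrays to separate animals, and p-values then rest on the spread among these arrays only, which may be technical. In bulk RNA, fewer cells of a type and less RNA per cell cannot be told apart.

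All values below are log2 ratios with the median of each array at 0, read as sample over reference. The direction is likely rather than stated (the reference is the first channel), as is the base of the logarithm, and an inverted ratio would turn every sign. A ratio to a reference does not show how much of a gene's RNA is present, so levels of different probes were not compared. Between 11615 and 16483 probes gave a value on an array, and the SD of an array ran from 0.841 to 2.01, widest in wild type replicate 2 and beta6 null replicate 1. Of the 43 member probes, 37 (34 genes) had values on 3 or more arrays of each group and were tested, and 17 had values on all 15. The probes of Esrrb, Hnf4a, Ncoa2, Nr1h4 and Rxrb and 1 probe of Nr6a1 were not. The list of alveolar macrophage markers held 16 symbols, some of them older names of the same gene and some marking macrophages in general. Probes for 8 of its genes gave 98.3% of their possible values, and none of these 8 passed in any comparison. Xist, a transcript of the inactive X chromosome, averaged -3.10 ± 0.71 (SD, n = 5) on wild type arrays, -0.40 ± 1.48 on beta6 null arrays and -3.07 ± 0.49 on those with TGFb1. In the limma fit used below, Xist passed in beta6 null against wild type (2.69, SE 0.59, adjusted p = 0.0450). With TGFb1 over beta6 null it differed by -2.67 (SE 0.59, adjusted p = 0.0515). Whether the groups differed in the sex of the mice was not tested. Among 7 tested lung epithelium markers 1 rose and 2 fell in beta6 null, and 2 rose with TGFb1 over beta6 null. Over the 3 of its probes measured on every array, that list averaged -2.52 to -0.285 on wild type arrays, -3.09 to -2.07 on beta6 null arrays and -1.47 to -0.56 on those with TGFb1. Among tested markers of other cells, 1 of 6 neutrophil probes rose and 1 of 8 monocyte and dendritic cell probes fell in beta6 null, 1 of those 8 fell with TGFb1 over beta6 null, and 0 of 5 T and NK cell, 2 B cell and 4 endothelium and fibroblast probes passed. The part of Xist and of these markers in the results below was not tested, other than by a fit with the Xist level as a covariate.

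A single member passed, by 1 of its 2 probes, which does not show that the others were unchanged. Nrip1, a corepressor that docks on ligand-bound nuclear receptors and is known for repressing genes of oxidative metabolism, was by 1 of its probes 5.93-fold lower in beta6 null macrophages than in those of wild type mice, and 4.09-fold higher with TGFb1 than in beta6 null. Its other probe did not pass in any comparison. The 250 bases before each of the 2 Nrip1 starts that RefSeq lists (GRCm38.p6, minus strand, chromosome 16) are shown. Nrip1 is the member that passed, and its probes may read transcripts of different structure. Capitals mark CAGAC or its reverse complement GTCTG, letters that hold the core of the DNA element bound by SMAD proteins, the effectors of TGFb.

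Nrip1 start 1, chr16:76373828-76374077: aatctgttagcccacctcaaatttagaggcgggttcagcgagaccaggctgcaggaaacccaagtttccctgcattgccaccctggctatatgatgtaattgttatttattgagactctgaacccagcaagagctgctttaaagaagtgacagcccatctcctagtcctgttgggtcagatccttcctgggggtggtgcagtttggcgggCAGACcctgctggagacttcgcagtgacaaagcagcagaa
Nrip1 start 2, chr16:76373050-76373299: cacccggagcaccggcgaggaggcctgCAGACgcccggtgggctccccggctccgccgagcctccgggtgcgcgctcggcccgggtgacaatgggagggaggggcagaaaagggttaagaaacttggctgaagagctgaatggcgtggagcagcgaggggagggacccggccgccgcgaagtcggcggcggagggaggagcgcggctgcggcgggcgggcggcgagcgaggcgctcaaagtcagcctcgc

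Each window held 1 such match, as did 42.2% of 32851 RefSeq windows of the same length at least once on either strand. The core letters of many nuclear receptor elements, AGGTCA or TGACCT, were searched too and stood in neither Nrip1 window, against 14% of all windows. The upstream window of the first start was 51.2% G and C and that of the second 73.6%. A match of this kind is a description of letters and not a binding site.

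On wild type arrays, probe M200003989 of Nrip1, designed to a RefSeq transcript, gave 0.67, 0.22, 0.89, 0.41 and 0.43. On beta6 null arrays it gave -2.04, -2.05, -2.94, -1.22 and -1.96. On the arrays with TGFb1 it gave -0.13, 0.19, 0.16, -0.38 and 0.09. All beta6 null arrays thus lay below every array of the other groups, with no array between. The wild type mean was 0.52 ± 0.26 (SD, n = 5), the beta6 null mean -2.04 ± 0.61 and the mean with TGFb1 -0.01 ± 0.24.

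In limma's fit over 13978 probes, Nrip1 by this probe fell in beta6 null by 2.57 (SE 0.29, adjusted p = 3.81e-04, 95% interval -3.20 to -1.94). With TGFb1 it rose over beta6 null by 2.03 (SE 0.29, adjusted p = 0.00548). Beta6 null arrays enter both comparisons, so the second is not independent of the first. It was the only member probe called in either: 1 of 37 fell in beta6 null, where 0.601% of all probes fell and 0.372% rose, and 1 of 37 rose with TGFb1, where 0.622% of all probes rose and 0.129% fell. With the Xist level of each array as a covariate the differences were -1.86 (adjusted p = 0.198) and 1.33 (adjusted p = 0.490), and no probe of the array passed. Xist read -1.45, 0.22, 0.79, -2.46 and 0.88 on beta6 null replicates 1 to 5, between -4.14 and -2.37 on wild type arrays and between -3.48 and -2.27 on those with TGFb1.

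Between beta6 null with TGFb1 and wild type, Nrip1 did not pass by this probe. The highest of the 5 arrays with TGFb1 (0.19) lay just under the lowest wild type array (0.22). The difference of -0.54 (SE 0.29, 95% interval -1.17 to 0.09) had an adjusted p = 0.817, and 1.14% of all probes were lower without overlap in this comparison. No probe of any gene passed between beta6 null with TGFb1 and wild type by limma, where 879 probes (6.29%) had an unadjusted p under 0.05, 4 of them member probes.

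**Figure D1:**
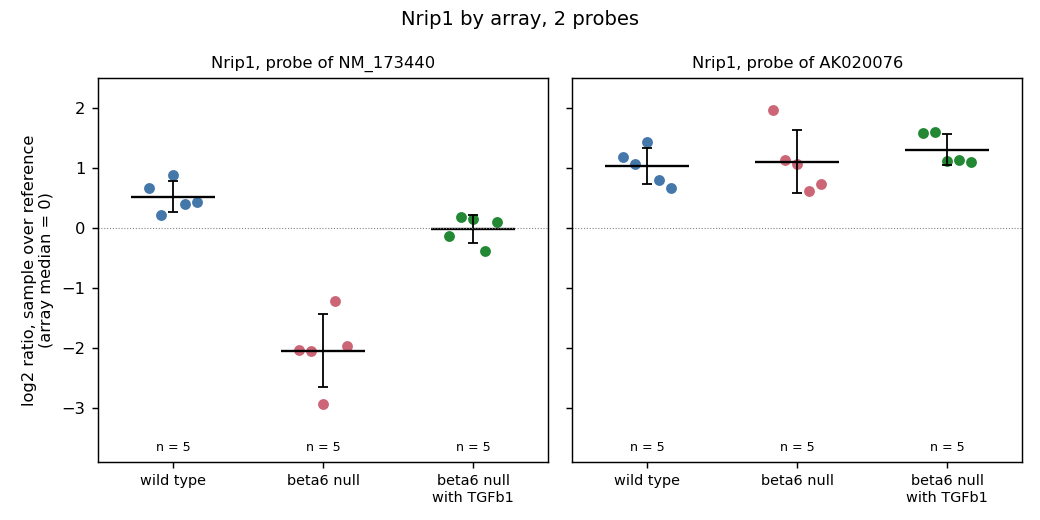
Log2 ratio of Nrip1 (sample over reference, array median at 0, vertical axis) on each array in the 3 groups, for the probe designed to a RefSeq transcript (left) and the probe designed to a cDNA clone (right). Points are arrays, lines are group means and bars are SD (n = 5 each). On the left the beta6 null arrays lie between -2.94 and -1.22, below all others, while on the right the 3 groups overlap.

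The second Nrip1 probe, M200011594, designed to a cDNA clone sequence, gave 1.19, 1.08, 1.44, 0.80 and 0.67 in wild type. It gave 1.98, 1.14, 1.07, 0.62 and 0.74 in beta6 null, and 1.58, 1.60, 1.13, 1.14 and 1.10 with TGFb1. The 3 groups overlapped. The difference between beta6 null and wild type was 0.08 (SE 0.28, adjusted p = 0.943), with a 95% interval of -0.53 to 0.68 that does not reach the fall seen by the first probe. With TGFb1 the differences were 0.20 over beta6 null (SE 0.28, adjusted p = 0.790) and 0.28 over wild type (SE 0.28, adjusted p = 0.888). The first of these was 0.74 with the spread of arrays made equal (adjusted p = 0.185), 0.52 under quantile normalization, 0.49 with array weights and 0.42 without beta6 null replicate 1, and did not pass in any of them.

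The first probe minus the second within each array, an offset that says nothing by itself, was compared between groups. The pair was examined because an earlier analysis of these data had seen its probes part, so the comparison describes the same arrays again and is not independent support. On wild type arrays it was -0.51 ± 0.23 (SD, n = 5), on beta6 null arrays -3.15 ± 0.92 and on those with TGFb1 -1.32 ± 0.32. No 2 groups overlapped: the arrays ran from -0.86 to -0.24, from -4.02 to -1.84 and from -1.71 to -0.97. The offset was 2.64 lower in beta6 null than in wild type (a difference of -2.64), 1.83 higher with TGFb1 than in beta6 null, and with TGFb1 differed by -0.81 from wild type. An exact two-sided permutation test gave p = 0.00794 in each of the 3 comparisons (also after adjustment over them), which is the smallest that 5 against 5 arrays allow and is fixed once groups do not overlap. Averaged over its probes before the fit, Nrip1 would have read -1.25 (adjusted p = 0.0216) and 1.12 (adjusted p = 0.0450), values that neither probe gave. The sources used here do not say where the second probe lies in the gene. In RefSeq a lncRNA gene, Gm30569, overlaps the span of Nrip1, so which transcript that probe reads was not settled.

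The other coregulators did not pass. Of their 5 tested probes, those of Nrip1 left out, 4 lay below 0 in beta6 null against wild type, with a median of -0.80 beside -0.05 for all probes, and 3 lay above 0 with TGFb1 over beta6 null, with a median of 0.12 beside 0.12. The median of -0.80 is the Ncoa3 value, which was 0.02 without beta6 null replicate 3. Ppargc1b turned to 0.41 without the same array. Ncoa4 and Ncoa1 stayed below 0 in every fit run with 1 array left out. For Ncoa1 these fits never dropped any of its 3 beta6 null values, because the probe then had too few to be fitted. Its dependence on those arrays was thus not tested. The differences of all 37 probes are plotted with their standard errors.

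**Figure D2:**
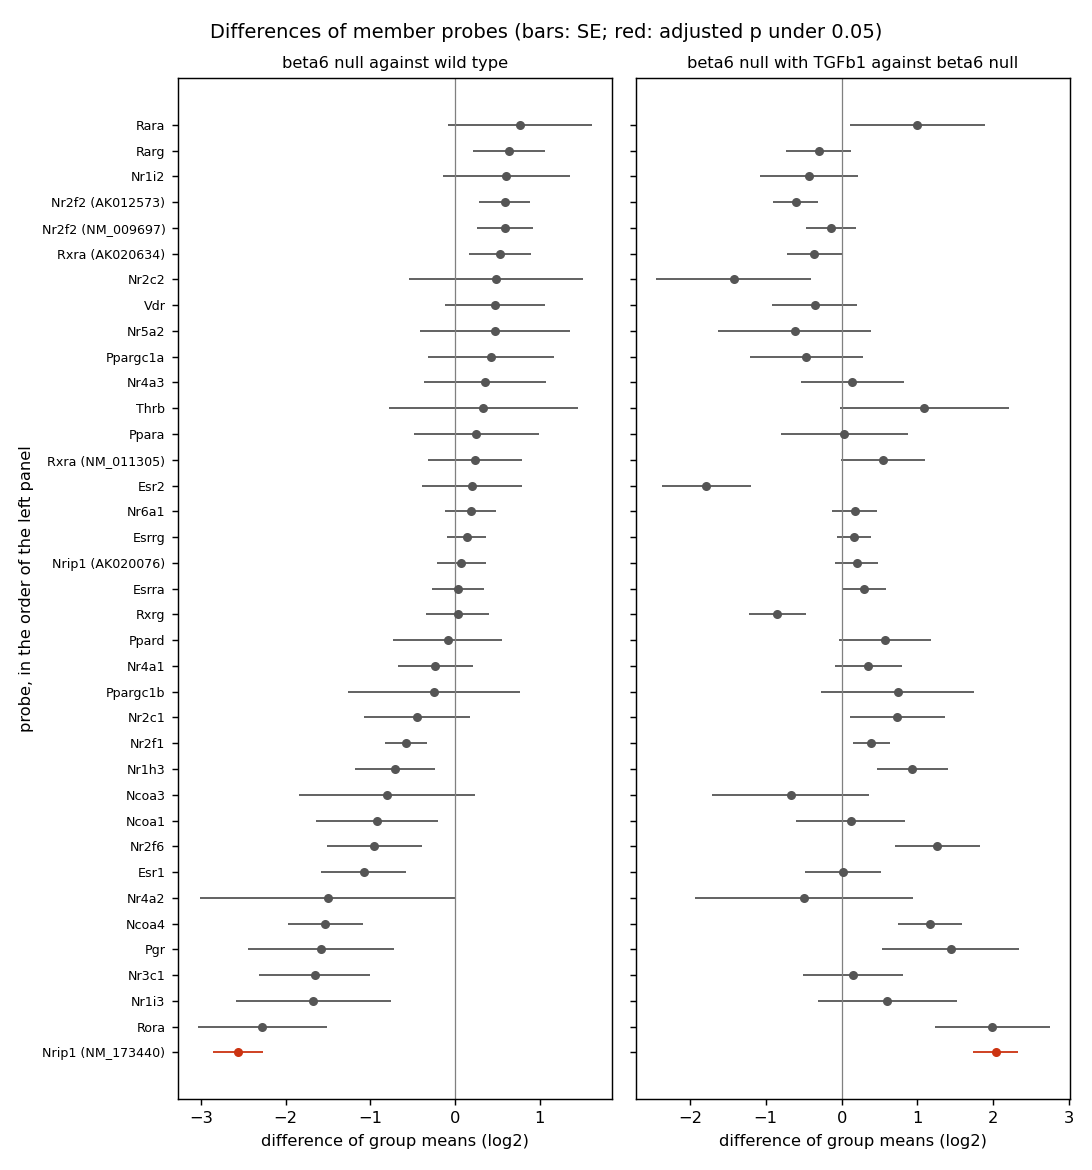
Difference of group means (log2, horizontal axis) for the 37 tested member probes, in beta6 null against wild type (left) and beta6 null with TGFb1 against beta6 null (right), with probes in the order of the left panel. Points are limma estimates, bars are standard errors and red marks an adjusted p under 0.05, which held only for the first Nrip1 probe (-2.57 and 2.03).

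Ncoa4, a coactivator of the androgen receptor that is also the cargo receptor for autophagy of ferritin, came next among the coregulators. It gave -1.69, -0.67, -0.16 and -0.86 on 4 wild type arrays, and -3.42, -2.14, -1.78 and -2.16 on 4 beta6 null arrays. With TGFb1 its 5 arrays read -0.76, -1.91, -1.14, -1.56 and -0.66. All measured beta6 null arrays lay below all measured wild type arrays, but 1 array with TGFb1 lay among those of beta6 null. The difference of -1.53 in beta6 null (SE 0.45, adjusted p = 0.168) did not pass, nor did that of 1.17 with TGFb1 over beta6 null (SE 0.42, adjusted p = 0.210) or that of -0.36 from wild type (SE 0.42).

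Ncoa1 and Ncoa3, histone acetyltransferase coactivators of steroid and other receptors, varied too widely for these arrays to place. Ncoa1 ranged from -0.88 to 0.45 in wild type, from -2.56 to 0.80 on 3 beta6 null arrays and from -1.90 to 0.27 with TGFb1 (difference in beta6 null -0.92, SE 0.72). Ncoa3 ranged from -1.96 to 2.26, from -4.52 to -0.03 and from -3.66 to 0.34 (difference -0.80, SE 1.04). Ppargc1a, a coactivator that drives mitochondrial biogenesis, differed by 0.42 (SE 0.74) in beta6 null, and its relative Ppargc1b by -0.25 (SE 1.01). The intervals for these 4 genes in beta6 null against wild type all held 0. For Ncoa3 the interval ran from -3.02 to 1.42, so a fall as large as that of Nrip1 was not excluded for it. Ncoa2 gave values on only 3 of the 15 arrays.

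Among receptors that sense lipids and xenobiotics, 0 of 5 tested probes passed. Nr1h3, the oxysterol receptor LXRalpha, which induces cholesterol efflux in macrophages, gave 0.07, 0.06, 0.30, 0.05 and 0.25 in wild type and 0.17, 0.42, -2.81, -0.33 and -0.27 in beta6 null. With TGFb1 it gave 0.17, 0.73, 0.51, 0.35 and 0.08. The groups overlapped, and 1 beta6 null array lay far below all the rest. The difference in beta6 null was -0.71 (SE 0.47, adjusted p = 0.576). With TGFb1 it stood 0.93 over beta6 null (SE 0.47, adjusted p = 0.368), a value that the same array enters.

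Ppara and Ppard, receptors of fatty acids, differed by 0.25 (SE 0.74) and -0.09 (SE 0.64) in beta6 null and by 0.03 (SE 0.84) and 0.57 (SE 0.61) with TGFb1 over beta6 null. Their relative Pparg, outside this set, differed by -1.14 (SE 0.35, adjusted p = 0.189) and 1.84 (SE 0.35, adjusted p = 0.0298) in the same comparisons. Whether Ppara and Ppard differ from Pparg in this was not tested. The xenobiotic receptors Nr1i2 and Nr1i3 differed by 0.61 (SE 0.75) and -1.67 (SE 0.91) in beta6 null. Nr1h4, the bile acid receptor, had values on 8 of 15 arrays and was not tested.

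No receptor of retinoids, thyroid hormone or vitamin D passed. All 7 tested probes (6 genes) lay above 0 in beta6 null against wild type, with a median of 0.48 beside -0.05 for all probes, and 3 of 7 lay above 0 with TGFb1 over beta6 null. The 2 Rxra probes share a gene, so these are not 7 separate observations. Some signs rested on 1 array. The median is the Vdr value, which was -0.14 without beta6 null replicate 3. Rxrg turned to -0.24 without beta6 null replicate 1, and 1 Rxra probe to -0.39 without wild type replicate 2. Rarg, Rara and the other Rxra probe stayed above 0 in every fit run with 1 array left out. For Rara these fits never dropped any of its 3 beta6 null values, because the probe then had too few to be fitted. Whether its sign rested on 1 of those arrays was thus not tested. Adjusted p-values ran from 0.582 to 0.983 in the first comparison.

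Rarg, a retinoic acid receptor, gave 2.25, 1.96, 2.10, 1.17 and 0.88 in wild type, 3.41, 2.90, 2.19, 1.60 and 1.45 in beta6 null and 2.54, 2.57, 1.27, 1.90 and 1.74 with TGFb1, above the reference on every array and with the groups overlapping (difference in beta6 null 0.64, SE 0.43). Rara, the retinoic acid receptor best known in myeloid cells, had the third smallest p of the members in TGFb1 against wild type, at 1.77 (SE 0.78, adjusted p = 0.786). It ranged from -2.68 to 1.34 in wild type, from -0.26 to 1.64 on 3 beta6 null arrays and from 0.39 to 2.97 on 4 arrays with TGFb1. Its wild type and TGFb1 arrays overlapped.

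Rxra, the shared partner of many of these receptors, was read by 2 probes. They differed by 0.24 (SE 0.55) and 0.53 (SE 0.36) in beta6 null, and by 0.55 (SE 0.55) and -0.36 (SE 0.36) with TGFb1 over beta6 null. None of these differences passed, and whether the Rxra probes differ was not tested. Rxrg, the family member of muscle and brain, gave 1.32, 1.06, 1.22, 0.85 and 0.96 in wild type and 2.21, 1.40, 0.88, 0.44 and 0.63 in beta6 null. With TGFb1 it gave -0.59, -0.25, 0.63, 0.57 and 0.97, and 2 of these 5 arrays lay below every beta6 null array and 4 of 5 below every wild type array. Its differences were -0.85 from beta6 null (SE 0.37, adjusted p = 0.299) and -0.82 from wild type (SE 0.37, adjusted p = 0.787). Vdr, the vitamin D receptor, differed by 0.48 (SE 0.59) in beta6 null and Thrb, a thyroid hormone receptor, by 0.34 (SE 1.11). Rxrb had values on 6 of 15 arrays.

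**Figure D3:**
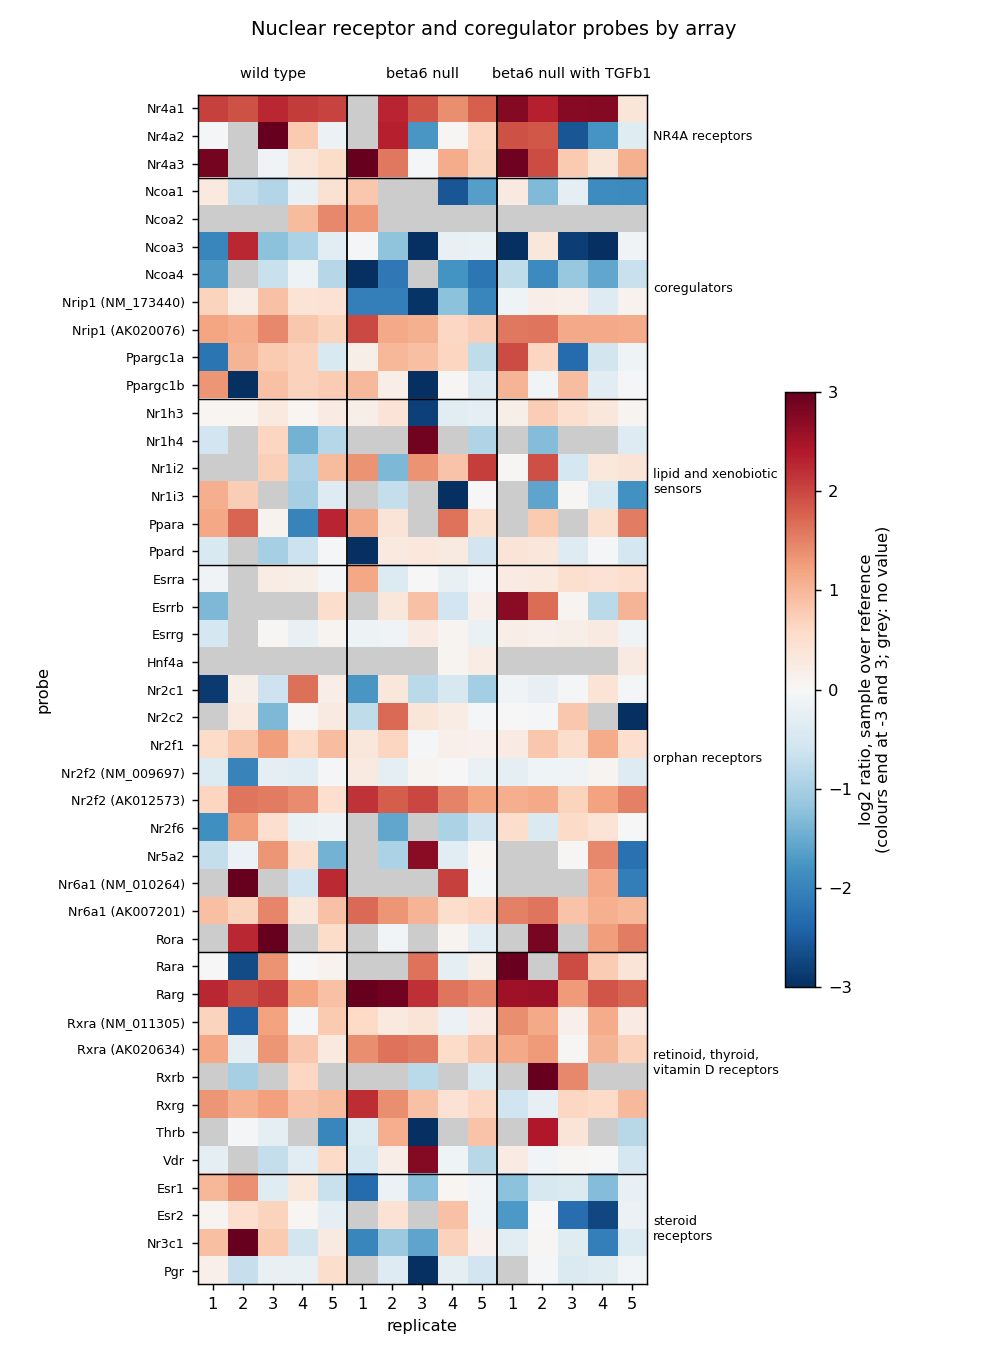
Log2 ratio (sample over reference, array median at 0, colour scale ending at -3 and 3) of all 43 member probes (rows, grouped by role, with the sequence accession where a gene has 2 probes) on each of the 15 arrays (columns, replicates 1 to 5 of each group). Grey cells hold no value. The first Nrip1 probe is blue on all 5 beta6 null arrays and on no wild type array, while most other rows are patchy within groups.

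Steroid receptors were below 0 in 3 of 4 tested probes in beta6 null against wild type, and 0 of 4 passed. Nr3c1, the glucocorticoid receptor, gave 0.90, 3.04, 0.78, -0.54 and 0.28 in wild type and -1.95, -1.12, -1.58, 0.68 and 0.12 in beta6 null. With TGFb1 it gave -0.30, 0.04, -0.37, -2.05 and -0.41. The difference was -1.66 in beta6 null (SE 0.66, adjusted p = 0.333) and, with TGFb1, -1.51 from wild type (SE 0.66, adjusted p = 0.786) and 0.15 from beta6 null (SE 0.66), with all groups overlapping. The first of these was -0.83 without the 2 widest arrays and -0.07 with array weights.

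Wild type arrays gave Esr1, an estrogen receptor, at -0.67 to 1.36, beta6 null arrays at -2.32 to 0.07 and those with TGFb1 at -1.30 to -0.22. Its differences from wild type were -1.08 (SE 0.50, adjusted p = 0.432) in beta6 null and -1.06 (SE 0.50, adjusted p = 0.792) with TGFb1. The former was -0.68 without beta6 null replicate 1, -0.43 without the 2 widest arrays and -0.10 with array weights. Esr2, the other estrogen receptor, gave 0.09, 0.50, 0.66, 0.05 and -0.28 in wild type, 0.44, 0.89 and -0.11 on 3 beta6 null arrays, and -1.72, 0.00, -2.28, -2.72 and -0.19 with TGFb1. The values with TGFb1 were low on 3 arrays and near the other groups on the remaining ones. Esr2 had the smallest member p in TGFb1 against wild type (-1.58, SE 0.51, adjusted p = 0.742) and the second smallest against beta6 null (-1.78, SE 0.59, adjusted p = 0.174). Pgr, the progesterone receptor, differed by -1.58 in beta6 null (SE 0.86), with 1 of 4 beta6 null arrays at -5.44 and the others between -0.56 and -0.28.

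Orphan receptors, those without an established physiological ligand when named, had 11 tested probes of 10 genes, and 0 passed in each comparison. Rora, a receptor of the circadian clock and lymphoid development, gave 2.26, 3.69 and 0.56 on 3 wild type arrays and -0.09, 0.09 and -0.32 on 3 beta6 null arrays. On 3 arrays with TGFb1 it gave 2.85, 1.26 and 1.52. No beta6 null value reached any value of the other groups, but the probe was missing on 6 of 15 arrays. Its differences were -2.28 (SE 0.76, adjusted p = 0.285) in beta6 null and 1.99 (SE 0.76, adjusted p = 0.265) with TGFb1 over beta6 null. Nr2f6, a repressor known from T cells, gave -1.57, -0.95 and -0.60 on 3 beta6 null arrays and 0.52, -0.43, 0.58, 0.42 and 0.02 with TGFb1, without overlap, but ranged from -1.84 to 1.25 in wild type. It differed by 1.26 with TGFb1 over beta6 null (SE 0.56, adjusted p = 0.314).

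Nr2f1 and Nr2f2, the COUP-TF receptors, had opposite signs in beta6 null, and neither passed. Nr2f1 ran from 0.54 to 1.26 in wild type, from -0.03 to 0.64 in beta6 null and from 0.25 to 1.12 with TGFb1 (-0.58 in beta6 null, SE 0.25, adjusted p = 0.375). Both Nr2f2 probes differed by 0.59 in beta6 null (SE 0.30 and 0.33, adjusted p = 0.473 and 0.510). The latter value takes in wild type replicate 2 at -2.01 (others -0.41 to -0.06). The likeness of the 2 values thus rests in part on 1 array. With TGFb1 over beta6 null the 2 Nr2f2 probes differed by -0.61 (SE 0.30) and -0.14 (SE 0.33).

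Esrra, the estrogen-related receptor of mitochondrial genes, differed by 0.04 (SE 0.31) in beta6 null. With TGFb1 its 5 arrays, from 0.26 to 0.49, lay just above the 4 wild type values, from -0.11 to 0.23, at a difference of 0.33 (SE 0.31, adjusted p = 0.875). In the NR4A family of ligand-independent immediate early receptors, Nr4a1 was above the reference on every array that measured it. It ran from 1.91 to 2.27 in wild type, from 1.40 to 2.28 in beta6 null and from 0.35 to 2.76 with TGFb1, and its difference in beta6 null was -0.23 (SE 0.44). Nr4a2 and Nr4a3 differed by -1.50 (SE 1.51) and 0.35 (SE 0.72).

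**Figure D4:**
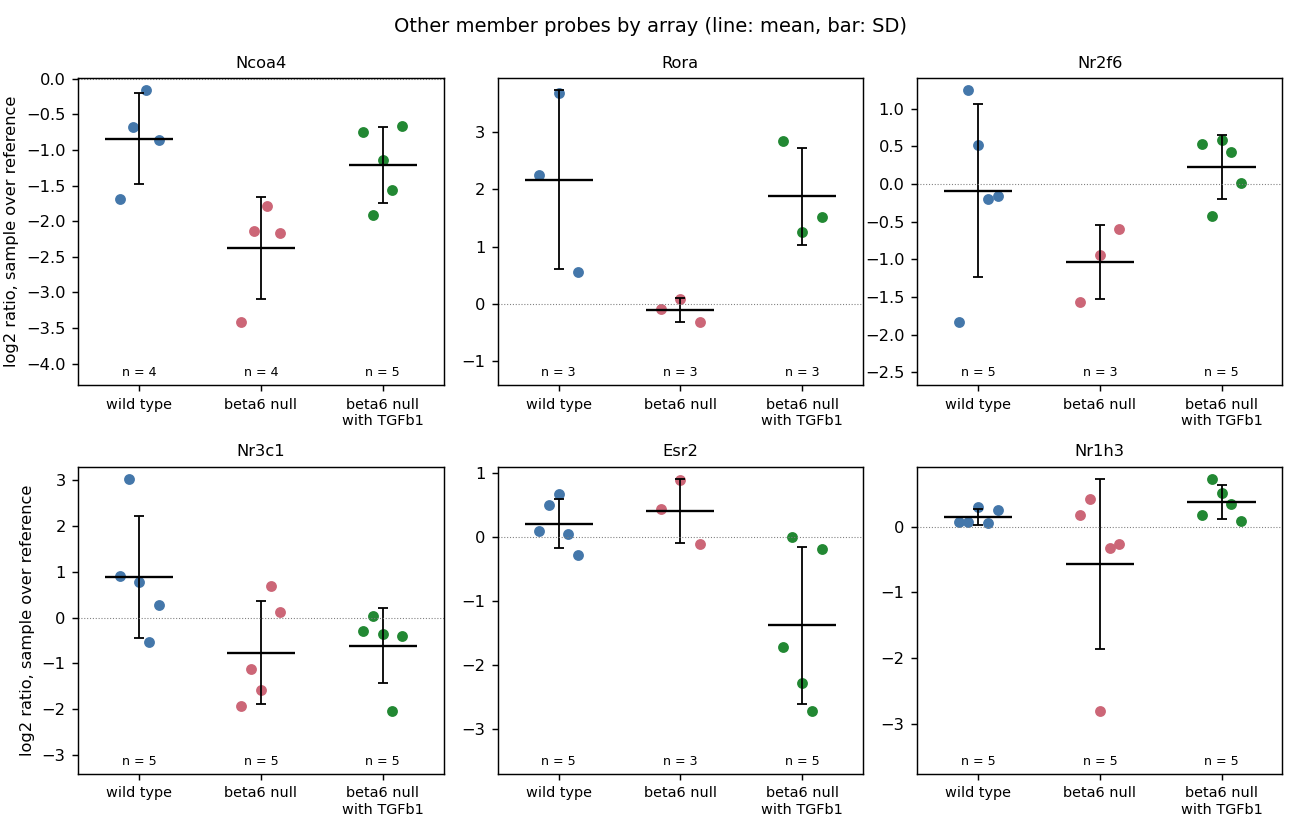
Log2 ratio (sample over reference, vertical axis, scaled for each gene) on each array for 6 further members that did not pass. Points are arrays with a value, lines are means, bars are SD and n is printed under each group. Ncoa4 and Rora are lower on all measured beta6 null arrays than on wild type arrays, while Nr3c1, Esr2 and Nr1h3 overlap there.

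In few member probes did groups not overlap. In beta6 null against wild type 3 of 37 member probes were lower without overlap (Nrip1, Ncoa4 and Rora), beside 3.13% of all probes, and 0 were higher, beside 2.05% (5.18% in either direction). With TGFb1 over beta6 null 3 were higher (Nrip1, Rora and Nr2f6), beside 6.5% of all probes, and 0 were lower, beside 1.94% (8.44% in either direction). In TGFb1 against wild type Nrip1 was lower and Esrra higher, beside 1.14% and 1.77% (2.91% in either direction). Of these genes only Nrip1 had values on all arrays. Rora rested on 3 against 3 arrays, Ncoa4 on 4 against 4, Nr2f6 on 5 against 3 and Esrra on 5 against 4. Groups with fewer arrays separate more easily by chance. An unadjusted p under 0.05 was reached by 6 of 37 in beta6 null (11.5% of all probes) and by 6 of 37 with TGFb1 over beta6 null (15.2%), shares close to the background.

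Genes that these receptors and coregulators are known to work with were taken from 6 lists of 79 symbols: other coregulators and targets of the LXR, PPAR, retinoic acid, glucocorticoid and vitamin D receptors. Of 59 probes tested (57 genes), 1 fell and 58 did not pass in beta6 null against wild type, beside 0.973% called of all probes, and 0 of 59 passed with TGFb1 over beta6 null, beside 0.751%. These counts moved with the setting: 6 and 12 passed with array weights, 4 and 4 without the 2 widest arrays, 3 and 1 without beta6 null replicate 1, 1 and 2 without wild type replicate 2, and 0 and 2 with complete probes. In beta6 null, 0 passed with the 2 groups alone, the suffix block, the Xist covariate or without wild type replicate 3 or 5. Under quantile normalization and with equal spread of arrays, 1 probe passed there, but it was higher in beta6 null and thus another than the one that fell. The gene that fell was Cidec, a lipid droplet protein and PPARgamma target. It averaged -1.27 on 4 wild type and -2.62 on 5 beta6 null arrays (difference -1.35, SE 0.25, adjusted p = 0.0204). That call ended in 7 of 27 alternatives, among them without wild type replicate 3 (adjusted p = 0.0746), without wild type replicate 5 (0.0765), under quantile normalization (0.530, difference -0.83) and with the spread of arrays made equal (0.559, difference -0.84).

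Among LXR targets (12 probes), 0 passed. Scd1, a fatty acid desaturase, differed by 2.76 in beta6 null (SE 0.63, adjusted p = 0.0640) and by -1.87 with TGFb1 over beta6 null (SE 0.60, adjusted p = 0.159). Mylip, the LXR-induced ligase that degrades the LDL receptor, differed by -1.33 in beta6 null (SE 0.37, adjusted p = 0.136). These targets of the same receptor thus had opposite signs, and neither passed. Lpl, lipoprotein lipase, stood 1.43 above beta6 null with TGFb1 (SE 0.46, adjusted p = 0.160).

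Among the 11 probes of PPAR targets, Cidec included, Cpt1a differed by -0.84 in beta6 null (SE 0.29, adjusted p = 0.264) and Ech1 by 1.24 with TGFb1 over beta6 null (SE 0.33, adjusted p = 0.0921). Of 10 probes of glucocorticoid receptor targets, Sgk1, a kinase, differed by -1.24 in beta6 null (SE 0.43, adjusted p = 0.252) and by 1.88 with TGFb1 (SE 0.43, adjusted p = 0.0582), and Tsc22d3 by 0.76 in beta6 null (SE 0.35, adjusted p = 0.433). Fkbp5 stood 2.54 above beta6 null with TGFb1 (SE 0.90, adjusted p = 0.208), over 5 and 3 arrays. The members of this list had no common sign in beta6 null, with 6 probes above and 4 below 0.

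The retinoic acid receptor targets Tgm2 and Dhrs3 differed by -0.58 (SE 0.47) and -0.50 (SE 0.24) in beta6 null and by 1.32 (SE 0.47, adjusted p = 0.201) and 0.48 (SE 0.24) with TGFb1 over beta6 null. Of 17 probes of other coregulators, 13 lay below 0 in beta6 null against wild type (median -0.54, beside -0.05 for all probes) and 12 above 0 with TGFb1 over beta6 null (median 0.44, beside 0.12), and 0 passed in each. Sirt1, a deacetylase of coregulators, had -1.25 (SE 0.47, adjusted p = 0.309) and 1.41 (SE 0.47, adjusted p = 0.172), and Trip4 had -0.81 in beta6 null (SE 0.30). Of vitamin D receptor targets, the hydroxylase gene Cyp27b1 had 1.81 in beta6 null (SE 1.09), and 0 of 4 probes passed.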

How the data were processed

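The files hold 1 log ratio per probe and array. No label or header names the scanner, dyes, background correction or normalization, so the sources used here do not give how the authors made the deposited log2 ratios. Base 2 was assumed from the range of the values, and array medians lay within 0.05 of 0. The 30 control spots were left out, the median of each array was subtracted, and probes with 3 or more values in each group were kept, each probe by itself. Genes were named from the platform annotation (13972 probes with 1 symbol, 13 with several), and symbols of genes outside the set were updated by Entrez ID. With limma 3.58.1 in R 4.3.3, 1 linear model of the 3 group means took in all 15 arrays (lmFit, eBayes), with Benjamini-Hochberg adjustment over all 13978 probes within each comparison and a threshold of 0.05. SE is the standard error from this model. Sequences came from a RefSeq promoter table of GRCm38.p6, and 40 of 46 members matched it. The steps were tested on simulated data. Alternatives covered normalization, filters, arrays left out, a title suffix as a block, array weights and an Xist covariate. The members, lists and tests were chosen with earlier results of these data known. Members given in full were those that passed, the 6 smallest p in each comparison, both Nrip1 probes and a list of main receptors and coregulators chosen by role. Pgr, Nr1i2, Nr1i3, Nr1h4, Thrb, Ppargc1a, Ncoa2, Rxrb, Nr4a2, Nr4a3 and Nr2f2 were named after their values were seen, and so were the genes plotted singly.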

Additional observations from a re-analysis of the deposited data

Results flagged for a closer look

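In 13 of 101 sets of 4 or 5 arrays (1 member probe in 1 group), a single array stood far from the others by Dixon's criterion, where chance gives about 1 in 20. Of the 13, 4 lay on beta6 null replicate 3 and 2 each on beta6 null replicate 1, wild type replicates 2 and 3 and replicate 5 with TGFb1. On beta6 null replicate 3, Ncoa3 read -4.52 (others -1.20 to -0.03), Pgr -5.44 (others -0.56 to -0.28), Nr1h3 -2.81 (others -0.33 to 0.42) and Vdr 2.76 (others -0.82 to 0.19). On beta6 null replicate 1, Ppard read -3.41 and Esrra 1.16. On wild type replicate 2, Ppargc1b read -4.69 (others 0.70 to 1.33) and 1 Nr2f2 probe -2.01. On wild type replicate 3, Nr4a2 read 6.70 (others -0.17 to 0.78) and Nr2c2 -1.36. With TGFb1, Nr4a1 read 0.35 on replicate 5 (others 2.34 to 2.76), Nr2c2 -5.32 on the same array, and Nr3c1 -2.05 on replicate 4. No value of either Nrip1 probe stood apart in this way.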

How the results depend on the processing

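No paired analysis was possible because no label pairs arrays across groups. The call of the first Nrip1 probe held in 26 of 27 alternatives in beta6 null against wild type and in 26 of 27 with TGFb1 over beta6 null, ending with the Xist level as a covariate. The average with the second probe is not counted here. Leaving out each array in turn, its differences ran from -2.77 to -2.34 and from 1.81 to 2.24. The member count of 1 in each of these comparisons became 0 with the Xist covariate and 3 with array weights (Ncoa4 at adjusted p = 0.0422 and Ncoa1 at 0.0428 in beta6 null, Esr2 at 0.0457 and Esrra at 0.0440 with TGFb1), and stayed at 1 to 1 when arrays were left out. It was 0 to 0 in TGFb1 against wild type.

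Of all probes, 136 passed in beta6 null against wild type (52 higher, 84 lower). The count was 82 under quantile normalization (43 to 39), 67 with equal spread of arrays (33 to 34), 44 when only those 2 groups entered, 70 with a block for the suffix (1 or 2) of the array titles, 477 with array weights, 89 without the 2 arrays whose title numbers stand apart, 218 without the 2 widest arrays, 0 with the Xist covariate and 72 to 168 leaving out each array (72 without wild type replicate 5, 73 without replicate 3, 87 and 90 without replicates 1 and 4, 79 without beta6 null replicate 2). With TGFb1 over beta6 null 105 passed (87 higher, 18 lower), and the count was 21 (13 to 8), 16, 60, 1226, 37, 363 and 0 under quantile normalization, equal spread, suffix block, array weights, without the arrays numbered apart, without the widest arrays and with the Xist covariate, 253 with complete probes, and 24 to 351 leaving out arrays (24 and 25 without TGFb1 replicates 4 and 3, 42 and 56 without replicates 1 and 2, 44 without beta6 null replicate 2, 351 without wild type replicate 2). In TGFb1 against wild type 0 passed, 1 with the 2 groups alone, 2 with array weights and 0 to 1 leaving out arrays. The causes were not tested.

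The second Nrip1 probe, near 0 in beta6 null, turned to -0.16 under quantile normalization, -0.23 with equal spread, -0.17 with array weights, -0.13 without the widest arrays, -0.016 without wild type replicate 5 and -0.14 without beta6 null replicate 1 (-0.14 to 0.20 leaving out each array). It turned to -0.055 with TGFb1 over beta6 null under the Xist covariate. Averaged with the first probe it read -1.25 in beta6 null and -0.13 in TGFb1 against wild type, by construction. The offset between the probes, recomputed under alternatives chosen after seeing the data, kept its direction and passed in each that was run. These did not include the Xist covariate. Leaving out arrays in turn, it ran from -2.97 to -2.43, from 1.61 to 2.16 and from -0.90 to -0.72. Those fits could not have failed, because groups that do not overlap stay apart when an array is dropped. Of 15 values that did not pass but were among the 6 smallest p of a comparison, Nrip1 left out, 7 moved by over 1.5 times under at least 1 alternative, 3 of them when 1 array was left out, and 0 changed sign. A probe with only 3 values in a group was not fitted when 1 of these was left out. That held for Rora in every group and for Esr2, Nr2f6 and Rara in beta6 null. The counts may therefore understate how far such values depend on 1 array. Of 48 other values of members described by role, 26 changed sign under at least 1 alternative. The number of arrays and missing spots limit the precision, and 6 member probes had too few values to test.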
